A study of Mus musculus with 8 samples.

Results

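Cytokines of the interleukin-6 family, their receptor subunits and the Stat3 pathway were examined in cultured mouse germline stem (GS) cells. A set of 9 genes of 31010 in the table was followed: the ligands Clcf1, Lif and Il6, the receptor subunits Il6st, Lifr, Osmr and Cntfr, the transcription factor Stat3 and the inhibitor Socs3. The set was chosen on Clcf1, which leaned lower in lines from mice born after intracytoplasmic sperm injection (ICSI), so its values between the groups are given as a description and carry no test. All 9 genes passed the filter of a mean of at least 1 FPKM (fragments per kilobase of gene, scaled to library size), as did 12000 genes in all.

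GS cells are spermatogonia, including stem cells, expanded in culture. The 8 lines are given as wild type (WT), of B6 (C57BL/6) background, from the testes of mature F1 mice. They were started from CD9-selected spermatogonia. In 4 control-F1 lines (29, 37, 44 and 45) the mice came from natural mating, and in 4 ICSI-F1 lines (11, 17, 20 and 21) from injection of a sperm into the oocyte. The paper calls the injected sperm wild type but took it from green mice, which carry an Egfp transgene. Whether the lines carry this transgene is not given. All lines were grown in the same medium, in which FGF2 and GDNF are listed and LIF is not. Cells were plated on gelatin with the aim of removing embryonic fibroblasts, the feeder cells, and how completely this removed them is not given. The paper's tail DNA assay numbers single F1 mice with the same numbers as these lines. The labels do not state the mouse or litter of each line, so p-values measure only the spread between lines. The sample titles are written in a pair of styles, termed label forms: lines 29, 37, 11 and 17 carry form 1, and lines 44, 45, 20 and 21 carry form 2. For the samples of form 1 the submitters' processing notes list STAR 2.7.9a and HTSeq 0.13.5. For those of form 2 they list STAR 2.6.0c and HTSeq 0.11.2. The paper's methods give the versions of form 1 for all 8 lines, so which versions made the form 2 values is not settled. Label form and the versions in the notes cannot be told apart.

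Interleukin-6 family cytokines all signal through gp130, the product of Il6st, which pairs with ligand-specific subunits. Binding activates JAK kinases, which phosphorylate STAT3, and STAT3 induces Socs3, whose product blocks the same receptor. In embryonic stem cells LIF sustains self-renewal through this route, and in spermatogonia STAT3 has been linked to differentiation, with Neurog3 as a downstream gene.

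Reads recovered per line ranged from 24219024 to 43413442, more in every line of form 2 than in any of form 1. A single read per kilobase of gene corresponded to 0.0227 to 0.0401 FPKM. Germ cell markers were present in all lines, with the summed level of 14 markers between 831 and 1516 FPKM, and none was at 0 in every line. Summed levels of 23 fibroblast markers ran from 383 to 1456 FPKM, and likewise none was at 0 in every line. Control lines 29 (1456 FPKM) and 44 (1363 FPKM) and ICSI line 20 (931 FPKM) were the highest, and control line 45 (383 FPKM) was the lowest. Markers of Sertoli cells (6 genes, 5.03 to 8.98 FPKM summed), Leydig cells (4 genes, 0.643 to 1.85 FPKM), peritubular myoid cells (4 genes, 2.33 to 13.0 FPKM), macrophages (4 genes, 5.17 to 17.3 FPKM) and endothelial cells (4 genes, 2.13 to 8.33 FPKM) were far lower, and Cyp17a1, a defining Leydig gene, was at 0 in all lines. In such bulk samples, fewer cells of a type and less RNA per cell cannot be told apart.

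Promoter windows from RefSeq (GRCm38.p6, 250 bases before to 50 after a start) were searched for TTCNNNGAA, a STAT-type motif that reads the same on both strands. Among the members, 8 had a window and 1, Socs3, held the motif, 154 to 146 bases before the start. Of 52 other genes of the pathway, 41 had a window and 4 held the motif, among them Bcl6, a transcriptional repressor. Some genes have several windows, and over all genes with a window the motif was held by 2582 of 27025 (9.55%), against 9.76% of these pathway genes. Of all 32851 windows of this length, 8.30% held it. The 3 stretches below are shown because Socs3 is the member that STAT3 is known to induce and Bcl6 differed between the label forms. Each is on the minus strand, written 5′ to 3′, with matches to the motif in capitals. They lie at chr11:117969472-117969560 (Socs3), chr16:23981333-23981481 (Bcl6, 3 matches) and chr16:23988932-23989000 (Bcl6, a second start, 1 match). The Socs3 and the first Bcl6 stretch lie inside the genes as GENCODE annotates them (Socs3, chromosome 11, 117966079 to 117970047; Bcl6, chromosome 16, 23965052 to 23988852), so they precede internal starts taken from RefSeq.
Socs3: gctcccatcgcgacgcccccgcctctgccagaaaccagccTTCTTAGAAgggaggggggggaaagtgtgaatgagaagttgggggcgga
Bcl6, first window: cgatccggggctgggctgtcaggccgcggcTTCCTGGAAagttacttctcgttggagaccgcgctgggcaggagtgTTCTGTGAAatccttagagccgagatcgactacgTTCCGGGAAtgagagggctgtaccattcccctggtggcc
Bcl6, second window: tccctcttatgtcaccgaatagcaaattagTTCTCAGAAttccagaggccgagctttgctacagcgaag
A match is a description of the letters in these windows. Binding was not measured.

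The levels of the 9 genes were compared first, on the FPKM scale, which corrects for gene length. Stat3 (median 40.8 FPKM over 8 lines) and Socs3 (36.0 FPKM) were the most abundant, followed by Il6st (16.5 FPKM), Clcf1 (8.18 FPKM), Lifr (6.51 FPKM), Lif (3.94 FPKM), Cntfr (2.82 FPKM), Il6 (2.25 FPKM) and Osmr (1.20 FPKM). Neighbours in this order were compared within lines by an exact two-sided sign-flip permutation test, adjusted over 8 pairs. The order, and so the pairs, came from the medians of the same 8 lines. In FPKM, Socs3 exceeded Il6st in 8 of 8 lines (mean log2 ratio 1.19 ± 0.33 SD, n = 8, exact p = 0.00781, the smallest possible, adjusted p = 0.0313). Il6st exceeded Clcf1 in 8 of 8 lines (1.05 ± 0.28 SD, n = 8, exact p = 0.00781, adjusted p = 0.0313). The order of Socs3 and Il6st rests on the exon lengths used, 2891 and 11099 bases. In reads it was reversed in every line, with 4221 to 7541 for Il6st and 2116 to 7473 for Socs3. An error in length would be the same in all lines, so these p-values measure only the spread between lines. The other 6 neighbouring pairs did not differ beyond their spread, with adjusted exact p-values from 0.0625 for Clcf1 against Lifr and Il6 against Osmr (the first higher in 7 of 8 lines each) to 1.0 for Cntfr against Il6.

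**Figure D1:**
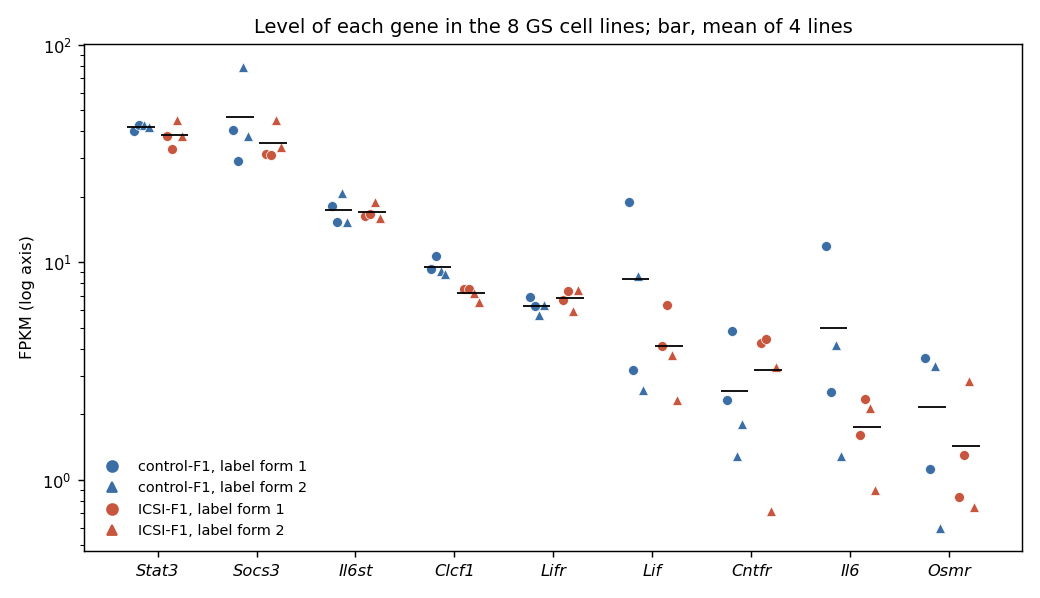
FPKM (log axis) of the 9 genes in each of 8 GS cell lines, in order of their median level; circles are label form 1, triangles label form 2, blue control-F1, red ICSI-F1, and bars the mean of 4 lines. Stat3, Il6st and Lifr vary little, Lif, Il6, Cntfr and Osmr spread over a 6.02- to 13.3-fold range, and the control and ICSI points do not overlap for Clcf1.

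The genes differed in how much they varied between lines. On the log2(FPKM + 1) scale, the SD over the 8 lines was 0.87 for Lif and 0.86 for Il6, each larger than that of 99.0% of the genes tested, and 0.65 for Cntfr (96.8%) and 0.62 for Osmr (96.4%). Socs3 had an SD of 0.45 (90.7%). Il6st (SD 0.15), Stat3 (0.13) and Lifr (0.12) varied less than most genes, with an SD larger than that of 24.0%, 17.6% and 12.1% of the genes. Thus among the members Il6st, Lifr and Stat3 were steady from line to line, whereas Lif, Il6, Cntfr and Osmr were not. This is no rule for ligand-specific subunits. Outside the set, the receptor subunit Il6ra was also steady (SD 0.11, larger than that of 8.98% of genes). Il11ra1, another, had an SD of 0.26 (65.2%).

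Clcf1, cardiotrophin-like cytokine factor 1, was the most abundant of the 3 ligands in the median (ENSMUSG00000040663, mm10 chromosome 19, 4214238 to 4223490, protein coding). Control lines 29, 37, 44 and 45 had 9.29, 10.7, 9.15 and 8.85 FPKM, and ICSI lines 11, 17, 20 and 21 had 7.49, 7.51, 7.19 and 6.58 FPKM. Every ICSI line lay below every control line, and line 37 was the highest. The control mean was 9.50 ± 0.817 FPKM and the ICSI mean 7.20 ± 0.434 FPKM (SD, n = 4 each), 24.2% lower, from 750 to 1487 reads per line. The log2 difference was -0.36 ± 0.10 (SE), with -0.37 in label form 1 and -0.34 in label form 2. This difference is what chose the set. Over all genes, 28 of 12000 (0.233%) had every ICSI line below every control line. Fitted without label form, limma called 0 genes (0%) at an adjusted p under 0.05. At an unadjusted p under 0.05 there were 55, and 47 in limma-voom on the recovered reads. This fit, which also gave the SE of each group difference, leaves differences between label forms in its error. With label form as a covariate limma called 0 genes, with 140 at an unadjusted p under 0.05. Of the 3806 exonic bases of Clcf1, 311 are shared with an annotated gene on the same strand, AC109138.7, so its reads are uncertain to that extent.

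Lif, leukaemia inhibitory factor, was uneven. Control lines 29, 37, 44 and 45 had 18.9, 3.19, 8.68 and 2.58 FPKM, and ICSI lines 11, 17, 20 and 21 had 4.13, 6.34, 3.74 and 2.31 FPKM. Control line 29 was the highest and line 44 next, and the groups overlapped, with means of 8.34 ± 7.56 and 4.13 ± 1.67 FPKM (SD, n = 4 each) and a log2 difference, ICSI minus control, of -0.57 ± 0.50 (SE). Il6 showed the same uneven picture. Its levels were 11.9, 2.54, 4.18 and 1.28 FPKM in control lines 29, 37, 44 and 45 and 1.61, 2.35, 2.14 and 0.896 FPKM in ICSI lines 11, 17, 20 and 21 (75 to 766 reads). The highest line was again control line 29 and the groups overlapped, at 4.98 ± 4.77 and 1.75 ± 0.649 FPKM (SD, n = 4 each; log2 difference -0.84 ± 0.46 SE). The Il6 difference was -1.19 in label form 1 and -0.49 in form 2.

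Il6st, which encodes gp130, was at 18.2, 15.2, 20.7 and 15.3 FPKM in control lines 29, 37, 44 and 45 and at 16.3, 16.6, 18.9 and 16.0 FPKM in ICSI lines 11, 17, 20 and 21. Lifr, the LIF receptor subunit, was at 6.89, 6.30, 5.73 and 6.36 FPKM in these control lines and at 6.67, 7.41, 5.97 and 7.46 FPKM in these ICSI lines, in the same order. The groups overlapped for both genes, with log2 differences of -0.024 ± 0.12 (SE) for Il6st and 0.10 ± 0.11 (SE) for Lifr. Osmr, the oncostatin M receptor subunit, divided the lines in another way. It was at 3.61, 1.12, 3.32 and 0.600 FPKM in control lines 29, 37, 44 and 45 and at 0.829, 1.29, 2.83 and 0.749 FPKM in ICSI lines 11, 17, 20 and 21. Lines 29, 44 and 20 were high and the other 5 low in either group, and the group log2 difference was -0.32 ± 0.38 (SE).

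Cntfr, the ciliary neurotrophic factor receptor subunit that also binds Clcf1, was at 2.34, 4.84, 1.28 and 1.80 FPKM in control lines 29, 37, 44 and 45. ICSI lines 11, 17, 20 and 21 had 4.26, 4.45, 0.720 and 3.30 FPKM (62 to 349 reads over the 8 lines). The groups overlapped (2.56 ± 1.58 and 3.18 ± 1.72 FPKM, SD, n = 4 each; log2 difference 0.19 ± 0.40 SE), with the lowest value in ICSI line 20 and the highest in control line 37.

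**Figure D2:**
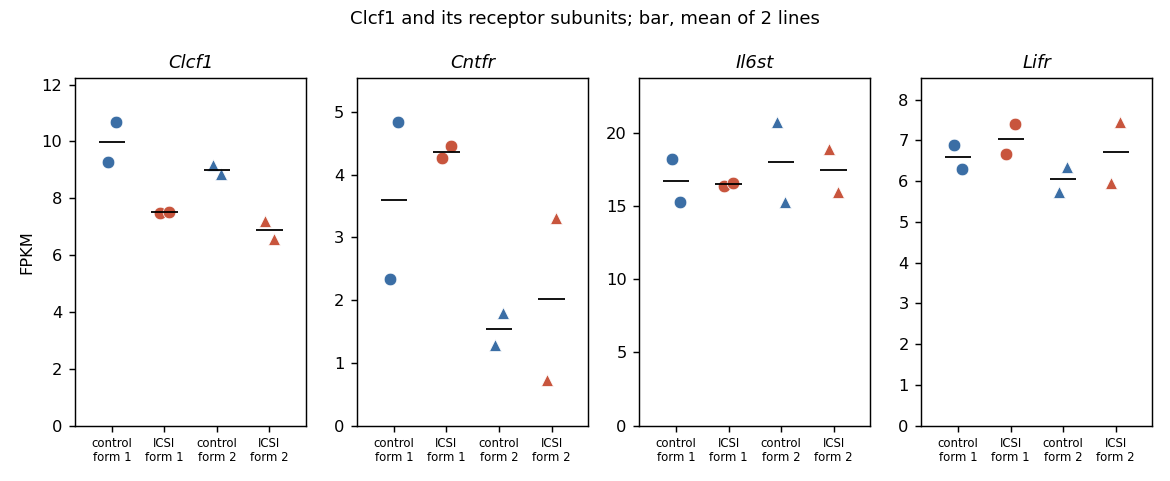
FPKM (linear axes from 0) of Clcf1 and of the receptor subunits Cntfr, Il6st and Lifr in each line, by group and label form; bars are means of 2 lines. Clcf1 is lower in ICSI lines within each form, Cntfr ranges from 0.720 FPKM in ICSI line 20 to 4.84 FPKM in control line 37, and the groups overlap for Cntfr, Il6st and Lifr.

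Stat3, the transcription factor of the pathway, was at 39.99, 42.7, 42.9 and 41.6 FPKM in control lines 29, 37, 44 and 45 and at 38.0, 33.2, 45.02 and 38.0 FPKM in ICSI lines 11, 17, 20 and 21. ICSI line 20 was above every control line and the other 3 ICSI lines below them (41.8 ± 1.32 and 38.6 ± 4.85 FPKM, SD, n = 4 each; log2 difference -0.12 ± 0.11 SE). Of its 9527 exonic bases, 72 are shared with Stat5a on the opposite strand. Socs3, the feedback inhibitor that STAT3 induces, was at 40.6, 29.3, 78.9 and 38.1 FPKM in control lines 29, 37, 44 and 45 and at 31.5, 31.0, 45.2 and 33.9 FPKM in ICSI lines 11, 17, 20 and 21. Control line 44 stood highest and the groups overlapped (46.7 ± 22.0 and 35.4 ± 6.67 FPKM, SD, n = 4 each; log2 difference -0.31 ± 0.27 SE).

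Across the set, 7 of 9 log2 differences between ICSI and control lines were negative, with a median of -0.31. Among all genes tested 55.7% were negative, with a median of -0.013. Since the set was chosen on a value in this contrast, the count carries no weight of its own. Single lines moved these differences. Lif went from -0.57 to -0.091 and Il6 from -0.84 to -0.37 without control line 29. Osmr went from -0.32 to -0.086 without control line 29 and to -0.12 without control line 44, and Socs3 from -0.31 to -0.027 without control line 44. Cntfr ranged from 0.0095 without control line 44 to 0.58 without ICSI line 20, and Il6st was -0.080 when control line 37 was left out and 0.060 when control line 44 was. The interaction of group and label form passed an adjusted p of 0.05 in limma for 0 of 12000 genes, with 147 at an unadjusted p under 0.05.

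The lines high in fibroblast markers were compared with the lines high in the members. Osmr, Socs3 and Il6st had their 3 highest values in control lines 29 and 44 and ICSI line 20, the same 3 lines that led the fibroblast markers, which makes 3 of 9 members against 7.15% of all genes tested. Of the 23 fibroblast markers, 15 had these same 3 highest lines, and 22 had a lower mean in ICSI lines. The 3 lines were picked on the sum of these markers, so the count of 15 only describes the marker list. The count of 22 does not depend on that choice and was not tested. A lower mean in ICSI lines was also found for 10 of 14 germ cell markers and for 55.7% of all genes tested. Lif and Il6 were highest in lines 29 and 44 but not in line 20 (3.74 FPKM of Lif there, below ICSI lines 17 and 11, and 2.14 FPKM of Il6, below control line 37 and ICSI line 17). Without these 3 lines, a choice made after the data were seen, the log2 difference between ICSI and control lines moved from -0.57 to 0.37 for Lif, from -0.84 to -0.16 for Il6, from -0.32 to 0.079 for Osmr, from -0.31 to -0.056 for Socs3 and from -0.024 to 0.090 for Il6st. For Stat3 it was -0.21 without them, for Lifr 0.16, for Cntfr 0.30 and for Clcf1 -0.39. Control lines 29 and 44 were the highest controls for Lif, Il6, Osmr, Socs3 and Il6st, so leaving them out had to lower the control means. The shifts of these genes are therefore a description and carry no support. As the set was chosen on Clcf1 and its groups do not overlap, no choice of lines could turn its sign, and its value here supports nothing. Which cells the Lif, Il6, Osmr and Socs3 reads came from was not tested.

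**Figure D3:**
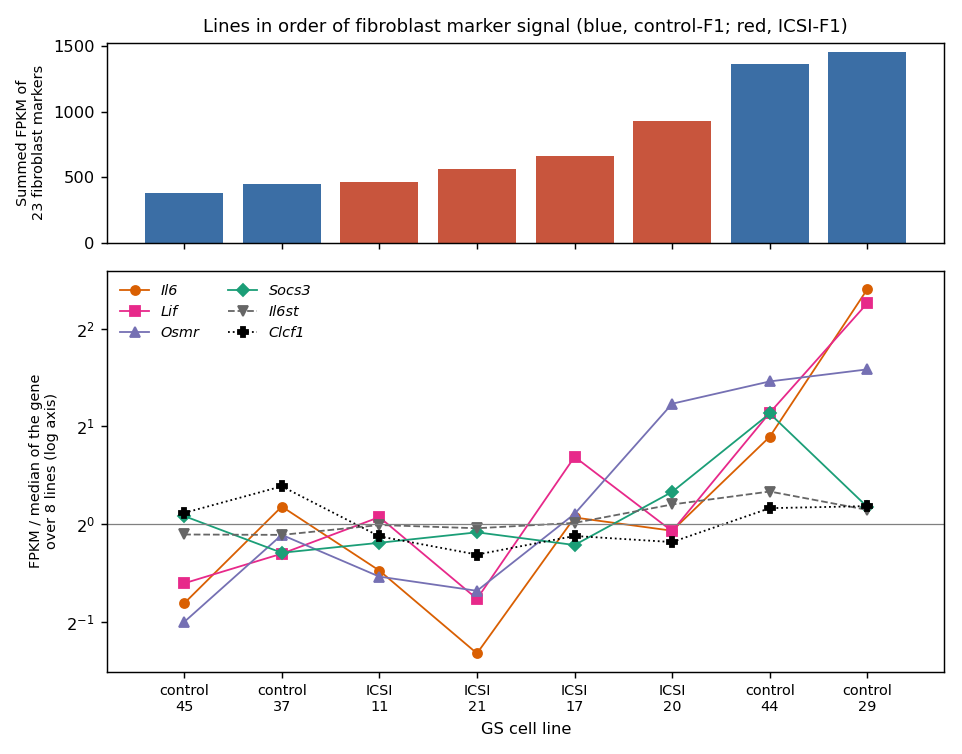
Upper panel, summed FPKM of 23 fibroblast markers in each line, in rising order (bars, blue control-F1, red ICSI-F1); lower panel, FPKM of 6 genes divided by the gene's median over 8 lines (log axis). Osmr is highest in the 3 lines on the right, and Lif and Il6 peak in control line 29, while Socs3 peaks in control line 44.

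**Figure D4:**
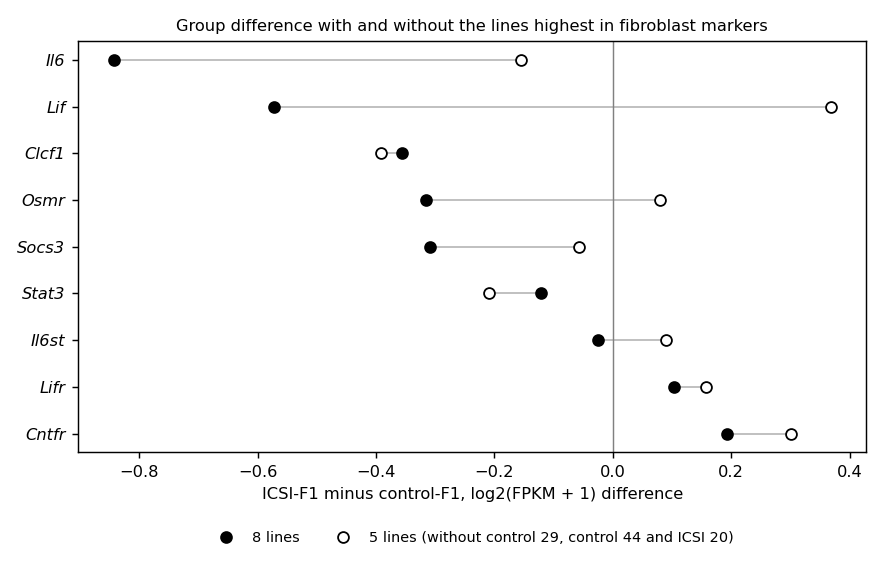
Log2(FPKM + 1) difference, ICSI-F1 minus control-F1, of each gene over 8 lines (filled) and over the 5 lines left without control lines 29 and 44 and ICSI line 20 (open). The points of Lif (-0.57 and 0.37), Osmr (-0.32 and 0.079) and Il6st (-0.024 and 0.090) lie on both sides of 0.

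The label forms were compared with the group as a covariate, in limma with Benjamini-Hochberg adjustment over all 12000 genes. This contrast did not choose the set. Of the 9 members 0 passed, where 1226 genes (10.2%) were higher and 691 (5.76%) lower in label form 2, 64.0% of calls being higher as deposited and 51.2% under quantile normalization. These counts depend on single lines, with 210 genes called in all without ICSI line 11, 287 without control line 37 and 429 without ICSI line 17. Cntfr came nearest, with a mean of 3.97 ± 1.12 FPKM in form 1 and 1.78 ± 1.11 FPKM in form 2 (SD, n = 4 each), a log2 difference of -0.89 ± 0.29 SE (limma adjusted p = 0.0654). It passed without ICSI line 21 (log2 difference -1.14, limma adjusted p = 0.0194). Its adjusted p ranged from 0.0194 to 0.173 over 15 alternatives. Socs3 had a log2 difference of 0.49 ± 0.22 SE (limma adjusted p = 0.155). For the other 7 members the limma adjusted p ranged from 0.324 for Il6 to 0.947 for Osmr.

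Of the 52 other pathway genes, 41 were tested. In the label form contrast 5 of 41 were higher and 0 lower in form 2, with a median log2 difference of 0.056 against 0.028 over all genes. The 5 are 12.2% of those tested, near the 10.2% of all genes called higher, so the count is no result about the pathway. Without control line 37 or ICSI line 17, 0 of them passed. The 5 were Jak1, a kinase bound to gp130, Bcl6, Grb2, an adaptor that links receptors to RAS, Ptpn2, a phosphatase acting on JAK and STAT proteins, and Sall4, a transcription factor of germ and stem cells. Jak1 was at 73.7, 75.6, 83.1 and 83.5 FPKM in lines 29, 37, 11 and 17 and at 161, 113, 170 and 112 FPKM in lines 44, 45, 20 and 21. Its means were 79.0 ± 5.04 and 139 ± 30.6 FPKM (SD, n = 4 each), which is 0.78 ± 0.15 (SE) on the log2 scale, with a limma adjusted p of 0.0173. The call of Jak1 was lost when control line 37, ICSI line 11 or ICSI line 17 was left out (limma adjusted p = 0.0589, 0.0617 and 0.0530). Bcl6 averaged 4.95 ± 1.18 FPKM in form 1 and 10.7 ± 3.21 FPKM in form 2 (SD, n = 4 each), a difference of 0.96 on the log2 scale with a limma adjusted p of 0.0237. Grb2, Ptpn2 and Sall4 differed by 0.38, 0.30 and 0.40 on the log2 scale, with limma adjusted p-values of 0.0369, 0.0395 and 0.0411. With single lines left out in turn, Bcl6 lost its call for 5 of 8 lines, Grb2 for 6, Ptpn2 for 7 and Sall4 for 7. After rescaling to TPM or quantile normalization, Grb2, Ptpn2 and Sall4 did not pass. Summed germ cell markers were 831 to 1001 FPKM in form 1 and 1209 to 1516 FPKM in form 2, with 8 of 14 higher and 1 lower in form 2, and their part in these differences was not tested.

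**Figure D5:**
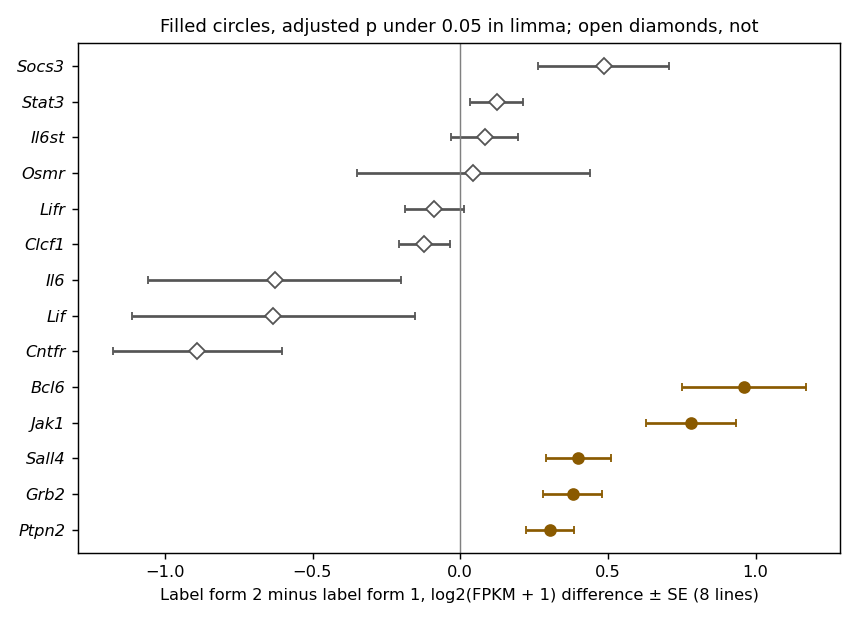
Log2(FPKM + 1) difference, label form 2 minus label form 1, with its standard error, for the 9 members and the 5 other pathway genes with an adjusted p under 0.05 in limma (filled circles, n = 4 lines per form). All 9 members are open diamonds, from -0.89 for Cntfr to 0.49 for Socs3, and the filled circles run from 0.30 for Ptpn2 to 0.96 for Bcl6.

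None of the other tested ligands, receptor subunits and kinases that pair with the members passed between the forms. Jak2 was at 13.1 ± 0.663 and 12.0 ± 1.51 FPKM in forms 1 and 2, and Tyk2, the third kinase of the receptor, at 12.9 ± 2.04 and 14.2 ± 1.27 FPKM (SD, n = 4 each; limma adjusted p = 0.401 and 0.454). Il6ra, the subunit that binds Il6, was at 2.16 ± 0.288 and 2.28 ± 0.200 FPKM (limma adjusted p = 0.752). Il11ra1, the interleukin-11 receptor subunit, was at 2.996 ± 0.701 and 2.09 ± 0.292 FPKM, a log2 difference of -0.36 ± 0.14 SE (limma adjusted p = 0.114). Its lowest line of form 1 had 2.49 FPKM and its highest of form 2 had 2.50 FPKM, so the forms barely overlapped. Among the other ligands, Ctf1, cardiotrophin 1, was at 1.93 ± 0.306 and 1.53 ± 0.371 FPKM (limma adjusted p = 0.252).

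Several partners were too low to be tested. Osm, the ligand of Osmr, had 0 to 11 reads per line and at most 0.148 FPKM, in control line 44. Cntf, the namesake ligand of Cntfr, was at 0.341 to 1.08 FPKM (12 to 39 reads), and Il11 at 0.146 to 3.32 FPKM (8 to 226 reads), highest in control line 44 and next in ICSI line 20. Neurog3, the spermatogonial differentiation gene, was at 1.13, 0.551, 0.730 and 1.49 FPKM in control lines 29, 37, 44 and 45 and at 0.477, 0.297, 0.521 and 1.11 FPKM in ICSI lines 11, 17, 20 and 21, so its groups overlapped. In the ICSI contrast limma called 0 of the 41 pathway genes, whether p was adjusted or not. Of these, 29 (70.7%) had a negative and 12 a positive log2 difference, with a median of -0.064. Over all genes tested 55.7% were negative, with a median of -0.013. The 3 highest lines of the fibroblast markers were shared by 8 of the 41, against 7.15% of all genes tested. As the gene lists were chosen with earlier results of these data known, these counts are a description.

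The genes most like Clcf1 over the 8 lines, by Pearson's r in log2(FPKM + 1), were Clec2f (r = 0.980), Phkb (0.915), Gm38999 (0.901), Fastkd5 (0.900) and Tmsb15b1 (0.892). Clec2f, annotated as a transcribed pseudogene, averaged 2.75 FPKM in the control group and 1.43 FPKM in the ICSI group. Those most like Socs3 were Zfp28 (r = 0.992), Csrnp1 (0.967) and Ereg (0.967), an epidermal growth factor receptor ligand. Control line 44 was the highest for all 3, with 36.5 FPKM of Ereg against 7.60 to 20.4 FPKM in the other lines. These are the highest of 12000 values over 8 lines that share groups and label forms, and are given as a description.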

How the data were processed

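Single reads of 8 GS cell lines were trimmed with cutadapt, mapped to mm10 with STAR and counted per gene with htseq-count by the authors, who deposited FPKM values. Their table also holds log2 fold changes and adjusted p-values that the authors obtained with DESeq2; these columns were not used. The labels and the methods name different library kits, so strandedness is uncertain. Members and gene lists were chosen with earlier results of these data known, and 1 gene of the pathway list is not reported here.

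Values were tested as log2(FPKM + 1) where a gene averaged 1 FPKM or more, with limma 3.58.1 in R 4.3.3 (lmFit, eBayes with trend, two-sided, Benjamini-Hochberg, threshold 0.05), after the code was tested on simulated data. A pseudocount of 1 understates changes of low genes. Whole reads (within 0.1 read) were recovered for 11784 of 12000 genes tested (98.2%) from the FPKM steps, using 1 length per gene (GENCODE M21) in all lines. Read counts are given without intervals, and reads carry no molecular identifiers. Named were the 9 members, pathway genes called between label forms (at most 5 each way by smallest p), ligands, receptors and kinases that pair with a member, the 5 genes most correlated with Clcf1 and the 3 with Socs3, and Neurog3. Alternatives covered the pseudocount, the filter, scaling, covariates, limma-voom on recovered reads and each line left out.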

Additional observations from a re-analysis of the deposited data

How the results depend on the processing

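The ICSI difference of Clcf1, on which the set was chosen, ranged from -0.39 to -0.30 over 15 alternatives. Its groups do not overlap, so leaving out a line could not turn its sign. The Stat3 difference between groups was -0.12, and -0.054 without ICSI line 17, -0.20 without ICSI line 20 and -0.21 without the 3 lines highest in fibroblast markers. Without a filter on low values, 1 gene passed between the groups (390 at an unadjusted p under 0.05), 1255 passed between the label forms, and 1 of the pathway genes did. Leaving out single lines gave 210 to 2691 genes between the forms, 0 to 1 members and 0 to 7 pathway genes, the fewest genes without ICSI line 11. After rescaling to TPM and after quantile normalization, 2 pathway genes passed each. Among the members, 1 passed (Cntfr) with the group not in the fit and 1 (Il6, log2 difference -0.64, limma adjusted p = 0.0319) without the 3 lines highest in fibroblast markers. The label form difference changed sign for Osmr (0.044), to -0.030 after rescaling to TPM, -0.15 in limma-voom, -0.24 to 0.39 with single lines left out (negative without control line 37 or 44 or ICSI line 11 or 20) and -0.30 without the 3 lines. It changed sign for Il6st (0.083), to between -0.0025 (without control line 44) and 0.16 with single lines left out and -0.022 without the 3 lines, and for Lifr (-0.087), to 0.048 without the 3 lines. The cause was not tested. The interaction was not run with single lines left out, since 1 combination of group and form would then hold 1 line. No paired analysis was possible because the line numbers are not shared between the groups. The lowest line held 75 reads of Il6 and 62 of Cntfr.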
